A study of Rattus norvegicus with 12 samples.

Results

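The genes described here encode the protein parts of the cytosolic ribosome. They were chosen by name from the count tables of the rat L5 spinal dorsal horn: every protein-coding row called Rpl or Rps with a number and at most 1 closing letter, together with Rplp0, Rplp1, Rplp2 and Rpsa. The rule found 70 of 32623 genes, 44 of the large subunit and 26 of the small subunit, and it used no measured value. A low-count filter applied to all genes left 63 of the 70 in each comparison, 38 of the large subunit and 25 of the small subunit.

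All rats were male 8-week-old heterozygous OT-hM3Dq-mCherry Wistar rats, in which a bacterial artificial chromosome places hM3Dq, a designer receptor fused to the red fluorescent protein mCherry, behind the oxytocin (OT) promoter. The receptor is thus meant for oxytocin neurons of the hypothalamus, not for the dorsal horn cells that were sequenced. CNO (clozapine-N-oxide), the ligand of the receptor, or Saline was injected s.c., CNO at 1 mg per kg, and the cord was taken 2 h later. Laminae I–II and laminae III–VI were cut out separately with a laser, 30 specimens from 3 rats each, and gave 3 libraries for each of 4 groups: I–II Saline, I–II CNO, III–VI Saline and III–VI CNO. Both treatments and both layers carried the transgene, and CNO in rats without it was not analysed here.

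The ribosome is assembled from ribosomal RNA and one copy of most of these proteins, so cells make the proteins in step with each other. In vertebrates many of their mRNAs start with a C followed by an unbroken run of pyrimidines, the terminal oligopyrimidine (TOP) motif, through which the mTOR pathway and the RNA-binding protein Larp1 set how fast they are translated. Neurons carry ribosomes and ribosomal protein mRNAs into dendrites and axons as well as in the cell body. The question put to the data was how the levels of these mRNAs differed between the superficial and the deep dorsal horn, and between CNO and Saline in each.

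The libraries held 5245952 to 7889953 counted reads. Superficial neuron markers (Tac1, Nmu, Grp and Tac3, summed) stood at 198 to 271 counts per 1000000 counted reads (CPM) in laminae I–II but only at 21.3 to 29.0 CPM in laminae III–VI, as the layer labels say. Schwann cell markers (Prx, Pmp2 and Pmp22, all 3 measured) stood at 120 to 252 CPM in I–II Saline against 30.9 to 65.1 CPM in I–II CNO and 24.4 to 33.8 CPM in laminae III–VI. The library I–II Saline 3 stood apart with the highest Schwann cell sum, 252 CPM, and with 447 CPM of fibroblast markers, which were at 97.0 to 123 CPM in the other 5 libraries of laminae I–II.

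The starts of the genes are shown first, because the start is where the TOP motif lies and because it sets these genes apart from most others. RefSeq windows of 300 bases (250 before the annotated start and 50 from it on, build GRCr8) were at hand for 54 of the 70 members. An unbroken run of at least 5 C or T, counted from a C within 5 bases of the start, was found in 35 of the 54 (64.8%) against 17.0% of all 33469 windows. It was found in 23 of 35 large subunit genes and 12 of 19 small subunit genes, and the runs were 5 to 21 bases long with a median of 10. The motif CCGGAAG on either strand, which lies in many binding sites of ETS factors, was in 16 of 54 windows (29.6%) against 8.75% of all windows. AAGATGGC on either strand, the core of YY1 sites, was in 3 (5.56%) against 3.17%. A match describes the letters and is not a site of binding or of translational control.

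The 30 bases around the start (20 before it, then the start and the 9 bases after it) are given for members whose levels are described in detail, with the pyrimidine run in capitals. The first 6 belong to genes higher in laminae I–II, the next 3 to genes with the lowest layer values, and the last 3 to genes described for CNO, where Rpl36a had the smallest p in laminae I–II and Rpl17 and Rps7 the smallest in laminae III–VI.
Rps27 (chr2:177964597-177964626, minus strand): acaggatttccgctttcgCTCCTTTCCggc
Rpl27a (chr1:172974553-172974582, plus strand): cctcgcgagacttggtgggCTCCTCCCTCT
Rplp1 (chr8:71290863-71290892, minus strand): tgcgcgcaggcgcatgtgatCCTTTCCTCa
Rplp0 (chr12:46718381-46718410, minus strand): ctggtgaccgcaccgcaCTTCTCTCgccag
Rps23 (chr2:23814497-23814526, plus strand): ccttgtgggtccttcctgCCTCTCTTCTCT
Rps15 (chr7:10068106-10068135, minus strand): gcagccgctgacaccgCTTCCTTTTCCCag
Rpl4 (chr8:73566457-73566486, plus strand): agtgataagttcttcCTTTTCCTgtgggag
Rps24 (chr16:96497-96526, plus strand): ggcagtgagcggtcctCTTTTCCTCCTTTa
Rplp2 (chr1:205975901-205975930, plus strand): atcttcctttcgccgccggacgccgccgag
Rpl36a (chrX:102059429-102059458, plus strand): aggcaccgcctataaaCTTCCgttgctgct
Rpl17 (chr18:70856256-70856285, plus strand): cccagtagccttcgcgCTTCCTCTTCCTgt
Rps7 (chr6:50999436-50999465, minus strand): tgttctcgcgagagctgtgtCTCTTTCTaa
Of these 12 genes only Rplp2 had no run by this definition. Genes higher and lower in laminae I–II both carried one: 17 of the 24 windows of members called higher in laminae I–II, 3 of the 7 of members called lower, and 13 of the 20 of members not called.

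Together the members took up 0.590% to 0.794% of all counted reads. The share was 0.708%, 0.794% and 0.739% in I–II Saline, and 0.701%, 0.720% and 0.721% in I–II CNO. It was 0.647%, 0.644% and 0.619% in III–VI Saline, and 0.590%, 0.609% and 0.603% in III–VI CNO. Every library of laminae I–II lay above every library of laminae III–VI (0.730% ± 0.034 against 0.619% ± 0.023, SD, n = 6). Shares of library totals include a shift of all genes. With that scaling the median log2 difference, laminae I–II minus laminae III–VI, was 0.29 for the members and 0.19 for all 13745 genes tested. Saline and CNO overlapped in laminae I–II and did not overlap in laminae III–VI, where CNO was lower. The 10 most abundant genes of a library took 8.72% to 9.28% of the reads in III–VI CNO and 7.81% to 8.54% in III–VI Saline. Of the reads left without those genes, the members took 0.646% to 0.671% in III–VI CNO and 0.677% to 0.702% in III–VI Saline, still without overlap. Leaving out 10 genes need not remove a shift of all genes. With library totals the median log2 difference, CNO minus Saline in laminae III–VI, was −0.08 for the members and −0.04 for all 13117 genes tested.

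Within the ribosome, small subunit genes made up 29.1% to 29.98% of the member reads in laminae I–II against 28.2% to 28.8% in laminae III–VI, again without overlap. In these bulk samples, fewer cells of a type and less RNA per cell cannot be told apart.

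**Figure D1:**
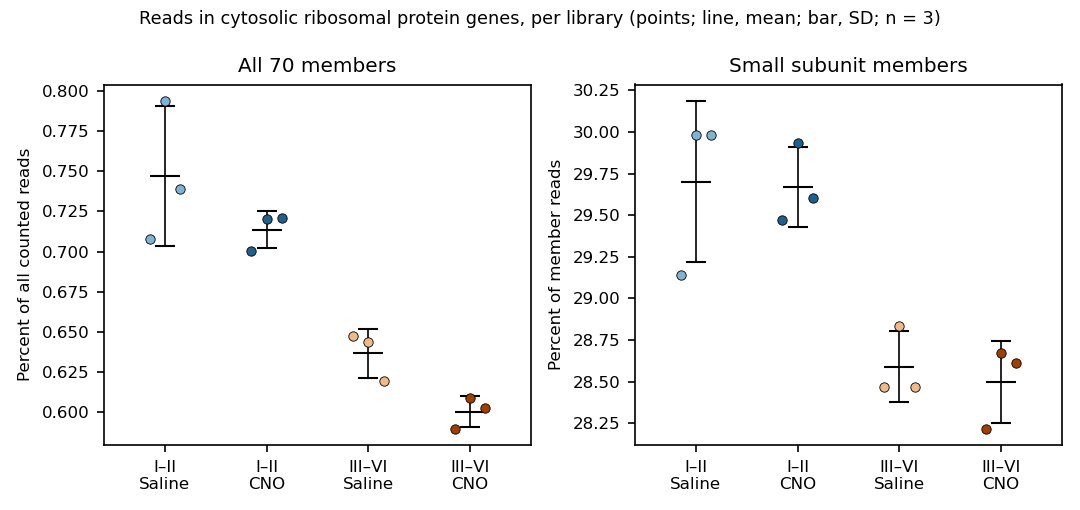
Reads in the 70 ribosomal protein genes as a percent of all counted reads (left) and small subunit genes as a percent of the member reads (right), 1 point per library, with the mean and SD of the 3 libraries of a group. The axes do not start at 0. With library totals the median of all genes was also higher in laminae I–II, and lower with CNO in laminae III–VI. All 6 libraries of laminae I–II lie above all 6 of laminae III–VI in both panels, and III–VI CNO (0.590% to 0.609%) lies below III–VI Saline (0.619% to 0.647%).

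The layer comparison asked which members differed between laminae I–II and laminae III–VI in same-numbered libraries. Of the 63 members tested, 32 were higher and 8 lower in laminae I–II at an adjusted p under 0.05 (edgeR quasi-likelihood test on all 13745 genes tested, same-numbered libraries of a treatment as a block, Benjamini-Hochberg). Among all genes tested 62.5% were called, 31.3% higher and 31.2% lower. In this fit, though not in all others (given below), the members were called about as often as other genes. They were called more often on the higher side, 50.8% higher and 12.7% lower. With the small subunit 15 of 25 were higher and 2 lower, and with the large subunit 17 of 38 were higher and 6 lower. The median log2 difference of the members was 0.11, against 0.02 over all genes tested.

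The split into higher and lower depends on the scaling. TMM factors placed the median of all genes near 0, whereas library totals alone moved it up by 0.18 on the log2 scale and gave 50 members higher and 0 lower, against 48.1% and 18.9% of all genes. Relative to all genes the members' median was 0.09 higher under both scalings. All 32 members called higher stayed positive in each of 18 alternative fits, and 13 of them were called in every one, among them Rps27, Rpl30, Rpl15, Rpl27a, Rpl27, Rps29, Rps15, Rplp1, Rpl18, Rps23 and Rplp0. Of the 8 members called lower, 0 were called with library totals alone, and 3 (Rplp2, Rps24 and Rpl4) kept their sign. In CPM, 23 members were higher in every laminae I–II library than in any laminae III–VI library, against 27.0% of all genes, and 0 were lower without overlap, against 10.6%. CPM are scaled by library totals, so they keep the shift between the layers that TMM takes out. TMM factors over the 12 libraries were 1.05 to 1.07 in laminae I–II and 0.920 to 0.965 in laminae III–VI. For members higher in laminae I–II, a gap in CPM is therefore narrower on the TMM scale and can close.

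Rps27, a zinc-finger protein of the small subunit (rn6 chr2:189572176-189573280, minus strand), differed most clearly. It stood at 110, 123 and 126 CPM in I–II Saline, 107, 116 and 120 CPM in I–II CNO, 77.1, 73.5 and 80.5 CPM in III–VI Saline and 71.8, 78.2 and 70.5 CPM in III–VI CNO. All laminae I–II libraries were above all laminae III–VI libraries, with a log2 difference of 0.46 ± 0.04 (SE, edgeR adjusted p = 9.92e-10). Over the alternatives the log2 difference was 0.42 to 0.64 and the adjusted p at most 3.01e-06.

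Rps23, a protein of the decoding centre of the small subunit, stood at 148, 149 and 135 CPM in I–II Saline, 131, 157 and 175 CPM in I–II CNO, 130, 118 and 100.2 CPM in III–VI Saline and 100.5, 113 and 126 CPM in III–VI CNO. In CPM the layers did not overlap, although I–II CNO 1 came close to III–VI Saline 1. The TMM log2 difference was 0.20 ± 0.04 (edgeR adjusted p = 5.80e-05). Rps15, in the head of the small subunit, was at 114 ± 7.33 against 85.7 ± 5.10 CPM (SD, n = 6), again without overlap in CPM. Its TMM log2 difference was 0.23.

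Among large subunit genes, Rpl15 stood at 81.0, 71.2 and 75.2 CPM in I–II Saline, 70.1, 66.4 and 72.1 CPM in I–II CNO, 57.3, 55.5 and 53.9 CPM in III–VI Saline and 50.7, 46.3 and 54.2 CPM in III–VI CNO. The layers were well apart in CPM (TMM log2 difference 0.28 ± 0.05, edgeR adjusted p = 1.16e-05). Rpl30, whose protein controls the splicing of its own RNA in yeast, had a log2 difference of 0.33 ± 0.06, with 46.1 to 60.6 CPM in laminae I–II compared with 31.8 to 42.3 CPM in laminae III–VI. The annotation places this Rpl30 row on another chromosome than the RefSeq gene of that name, so which gene its reads come from cannot be told. Rpl27a and Rpl27 both had a TMM log2 difference of 0.25, and in CPM no overlap between the layers.

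The stalk of the large subunit, which recruits the elongation factors, is built from Rplp0 with pairs of Rplp1 and Rplp2. Rplp0 was at 186, 179 and 172 CPM in I–II Saline, 161, 195 and 183 CPM in I–II CNO, 137, 149 and 137 CPM in III–VI Saline and 137, 141 and 135 CPM in III–VI CNO. Rplp1 was at 305, 289 and 245 CPM in I–II Saline, 256, 313 and 272 CPM in I–II CNO, 241, 209 and 210 CPM in III–VI Saline and 207, 197 and 207 CPM in III–VI CNO. In CPM both were higher in every laminae I–II library than in any laminae III–VI library. Their TMM log2 differences were 0.19 and 0.22 (edgeR adjusted p = 0.000114 and 3.88e-05). Rplp2 did not share this. It had 16.0, 29.8 and 23.4 CPM in I–II Saline, 13.4, 20.5 and 15.8 CPM in I–II CNO, 20.8, 31.7 and 17.9 CPM in III–VI Saline and 18.9, 21.7 and 22.5 CPM in III–VI CNO, so the layers overlapped widely. Its log2 difference was −0.36 ± 0.09 (edgeR adjusted p = 0.00114), but −0.19 with library totals alone (adjusted p = 0.0753) and −0.17 in the Saline libraries alone (adjusted p = 0.283).

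Rpl4, which lines the exit tunnel (rn6 chr8:69121682-69126805, plus strand), and Rps24 (rn6 chr16:757403-762075, plus strand), one of the genes mutated in Diamond-Blackfan anaemia, had the lowest p-values on the other side. Rpl4 stood at 259 to 271 CPM in laminae I–II compared with 256 to 300 CPM in laminae III–VI, overlapping in CPM. Its log2 difference was −0.21 ± 0.03 with TMM (edgeR adjusted p = 2.28e-06) and −0.03 with library totals alone (adjusted p = 0.369). Rps24 stood at 112 to 156 CPM in laminae I–II compared with 125 to 147 CPM in laminae III–VI, with −0.26 ± 0.05 and −0.09 on the same scales. Rpl6, Rpl17 and Rpl24 also had negative TMM values (−0.17, −0.17 and −0.13), which turned to 0.01, 0.00 and 0.05 with library totals alone. Rpl38, needed for the translation of Hox mRNAs in mice, had −0.17 with TMM and 0.01 with library totals alone, but this row too lies on another chromosome than the RefSeq gene of that name.

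A ratio of counts within a library does not depend on the scaling, and the length of a gene cancels between libraries. Rps27 per Rpl4 was 0.398 to 0.465 in laminae I–II against 0.245 to 0.295 in laminae III–VI. The layers did not overlap, so these members differed unequally between the layers whatever the scaling. The pair was picked from the ends of the layer ranking and is given as a description.

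**Figure D2:**
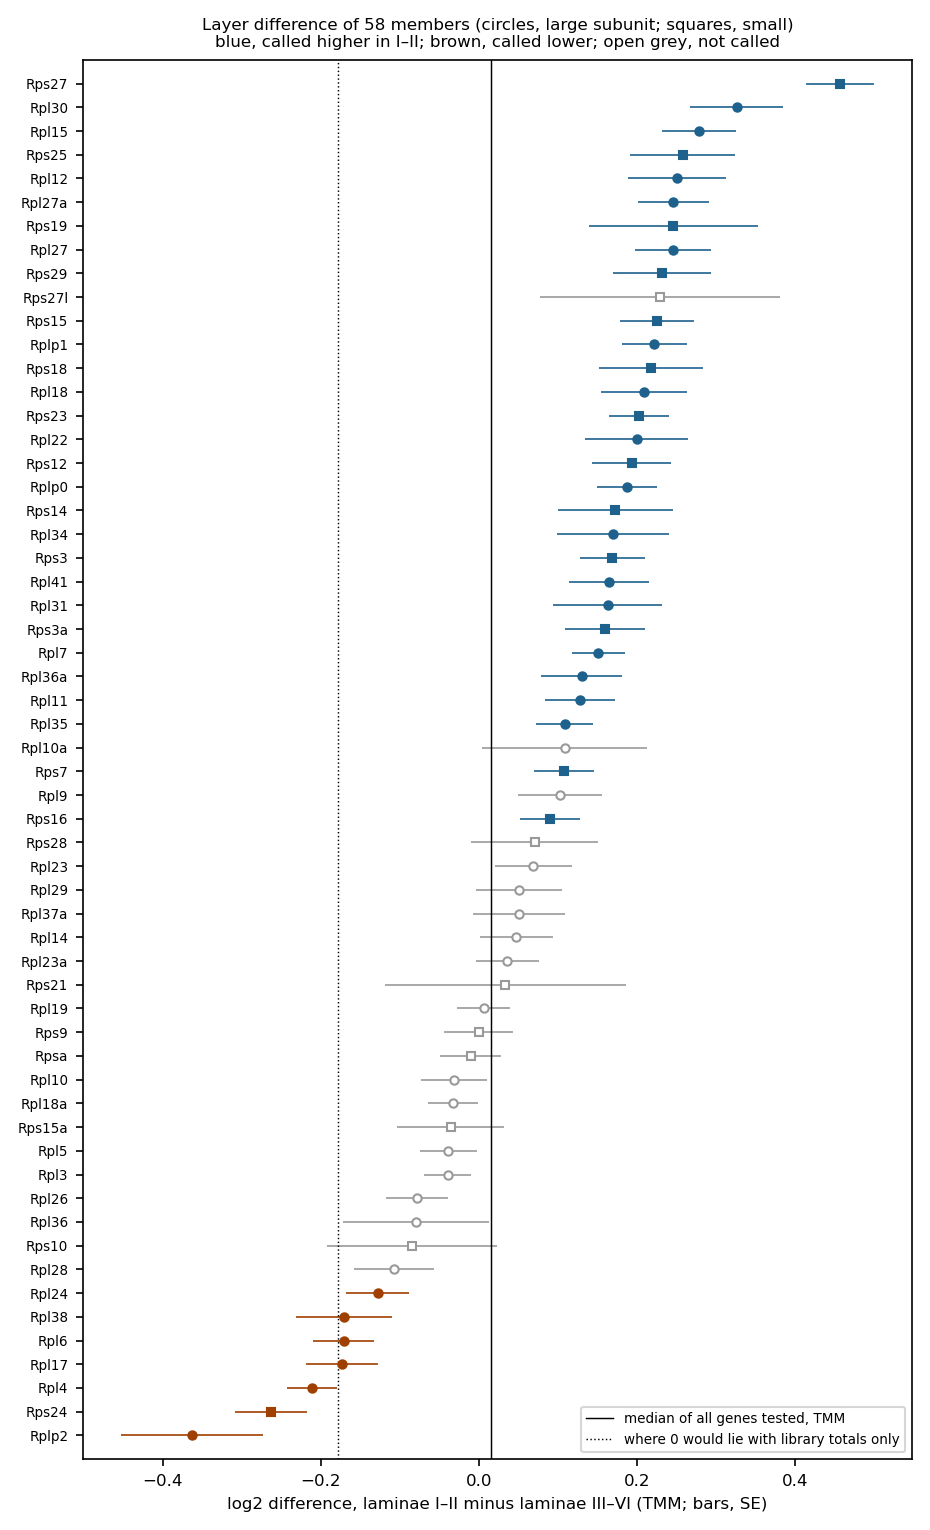
Fitted log2 difference (laminae I–II minus laminae III–VI, TMM scaling) of 58 of the 63 members with its SE, ordered by size. Rpl13, at 1.43 on 0 to 149 counts, is among those left out of the plot. Called members run from Rps27 (0.46) to Rplp2 (−0.36), and with library totals alone 0 would lie at the dotted line, which among the plotted members has only Rplp2, Rps24 and Rpl4 to its left.

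Other members with known special roles are given on the TMM scale first. Rpl5 and Rpl11, which together bind the smallest RNA of the large subunit and restrain Mdm2, had log2 differences of −0.04 (adjusted p = 0.365) and 0.13 (adjusted p = 0.0144). Rpl3, near the peptidyl transferase centre and the member with most counts, had 477, 498 and 497 CPM in I–II Saline against 467, 435 and 448 CPM in III–VI Saline, with a log2 difference of −0.04 (adjusted p = 0.265). Rpl10, needed for the last step of large subunit assembly, had −0.03 (adjusted p = 0.528), and Rpsa, known also as the laminin receptor, −0.01 (adjusted p = 0.834). Rps3, at the mRNA entry, and Rps25, which viral internal ribosome entry sites require, were higher in laminae I–II, by 0.17 and 0.26 (edgeR adjusted p = 0.000949 and 0.00150). Rpl41, the shortest of the proteins, was higher by 0.17 (adjusted p = 0.00639), and Rpl10a was not called (0.11, adjusted p = 0.376). Rps19, the gene most often mutated in Diamond-Blackfan anaemia, had 0.25 (adjusted p = 0.0487), but this row lies inside Cul9 and on another chromosome than the RefSeq Rps19. The Rpl3 row overlaps Syngr1 and the Rpl10a row lies inside Tead3, so their counts are uncertain too. The adjusted p-values up to here are from the same edgeR fit. With library totals alone Rpl3, Rpl5, Rpl10 and Rpsa turned positive, to 0.14, 0.14, 0.15 and 0.17, and were called (adjusted p = 0.000222, 0.00141, 0.00332 and 0.000452).

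**Figure D3:**
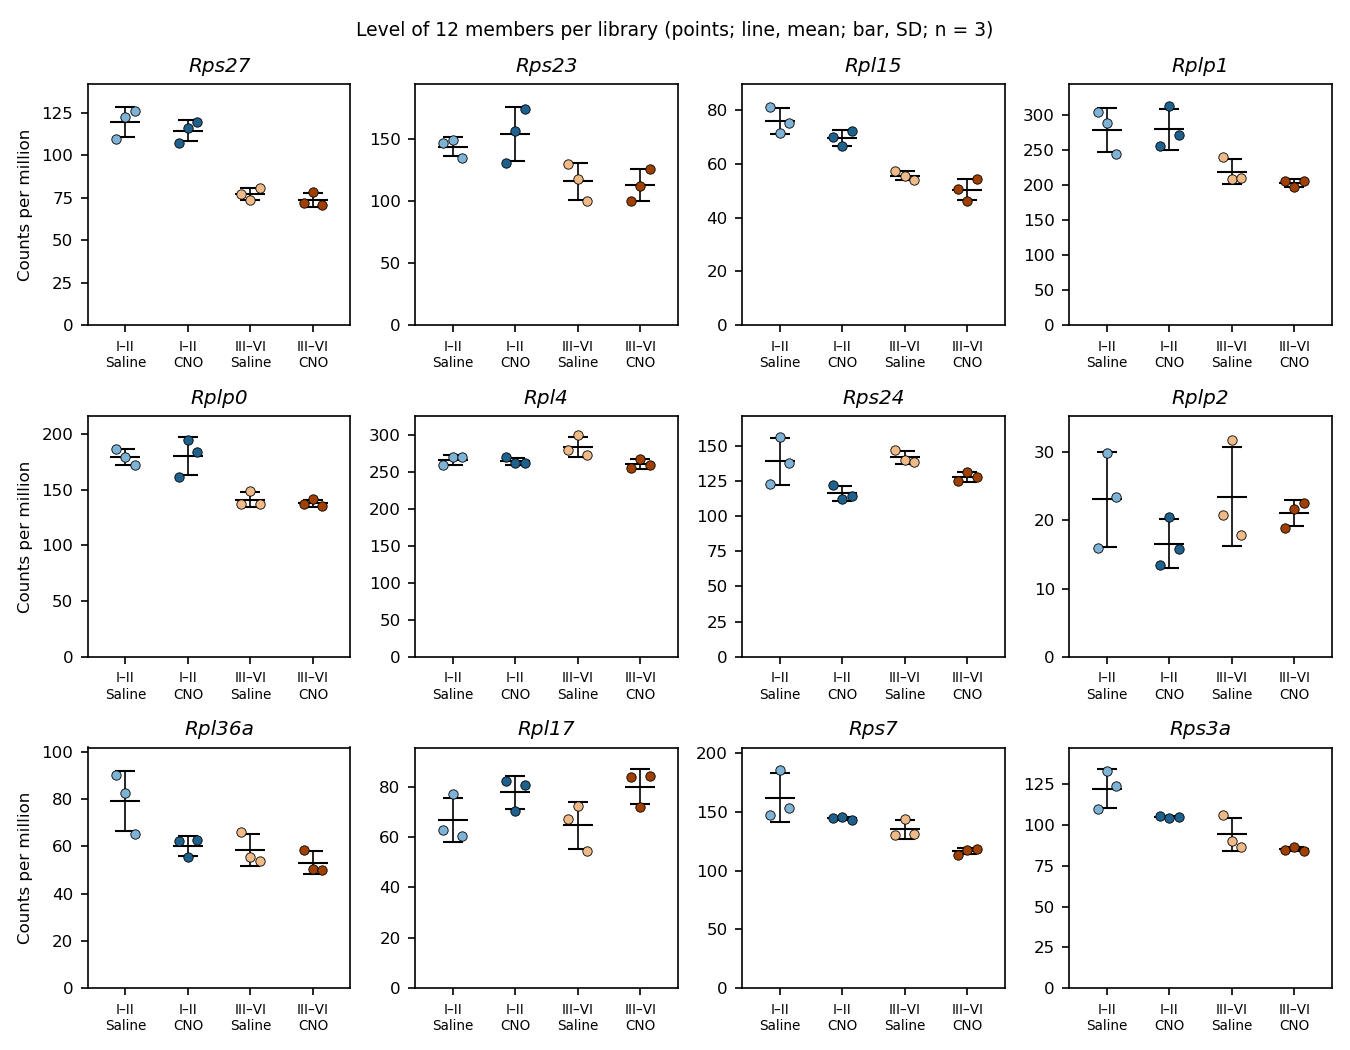
Level of 12 members in CPM (scaled by library totals), 1 point per library, with the mean and SD of the 3 libraries of a group, axes from 0. Rps27, Rps23, Rpl15, Rplp1 and Rplp0 are higher in all 6 libraries of laminae I–II than in any of laminae III–VI, and Rpl4, Rps24 and Rplp2 overlap.

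Some cell type markers moved with the layers too. Astrocyte markers (6 of 6 measured) summed to 3941 to 5033 CPM in laminae I–II compared with 2795 to 3186 CPM in laminae III–VI. Neuron markers (6 of 6) summed to 2056 to 2248 CPM and 2600 to 2904 CPM, and microglia markers (6 of 6) to 156 to 210 CPM and 86.2 to 140 CPM. Oligodendrocyte markers (6 of 6) overlapped, at 14350 to 16160 CPM and 14920 to 16920 CPM. On the TMM scale 33.3% of the neuron markers were higher in laminae I–II and 16.7% of the astrocyte markers were lower, against their sums. The part of these cell types in the members' layer difference was not tested. Without I–II Saline 3, the library with most Schwann cell and fibroblast signal, 33 members were called in place of 40, and 57.5% of all genes in place of 62.5%.

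Of 3 pairs of paralogs, 1 had a count ratio that separated the layers. Rpl22l1, the close relative that can take the place of Rpl22 in the ribosome, was called lower in laminae I–II (log2 difference −0.31 ± 0.06, edgeR adjusted p = 9.57e-05) while Rpl22 was called higher (0.20 ± 0.06, adjusted p = 0.00963). With library totals alone Rpl22l1 was at −0.13 (adjusted p = 0.0635). Counts of Rpl22l1 per Rpl22 were 0.804 to 1.25 in laminae I–II against 1.31 to 1.79 in laminae III–VI, without overlap. Rpl36al, which encodes nearly the same protein as Rpl36a, had −0.35 ± 0.05 (adjusted p = 7.68e-07) against 0.13 ± 0.05 for Rpl36a (adjusted p = 0.0306). Their ratio, 0.663 to 1.06 in laminae I–II against 0.916 to 1.45 in laminae III–VI, overlapped, with III–VI Saline 1 the lowest of its layer. Rps27l, which p53 induces, had 3.49 to 8.25 CPM and was not called (0.23, adjusted p = 0.195). Counts of Rps27l per Rps27 were 0.0468 to 0.0655 in laminae I–II against 0.0494 to 0.0703 in laminae III–VI, overlapping. Whether the authors' counting split reads between near-identical copies is not given in the sources used here.

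**Figure D4:**
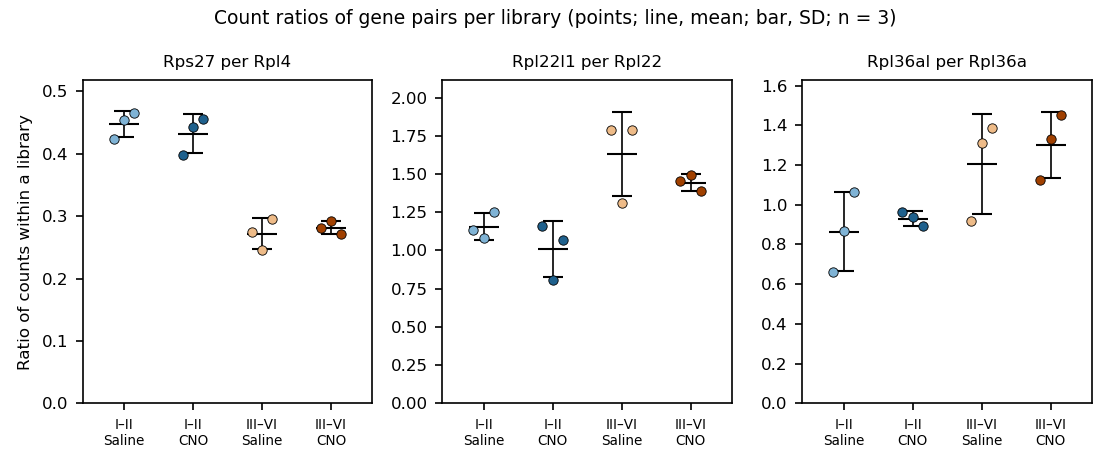
Ratio of counts of 3 gene pairs within each library, with the mean and SD of the 3 libraries of a group, axes from 0. Rps27 per Rpl4 is higher and Rpl22l1 per Rpl22 is lower in every laminae I–II library, and Rpl36al per Rpl36a overlaps.

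For CNO against Saline in laminae I–II, no member of the 63 was called by edgeR, where 0.142% of all 13344 genes were, and neither DESeq2 nor limma called any. At an unadjusted p under 0.05, 2 members were higher and 8 lower in edgeR (3.46% and 3.59% of all genes). DESeq2 gave 0 and 6 (1.81% and 1.9% of all genes), and limma gave 2 and 7 (3.62% and 3.22%). The fitted values leaned to the lower side: 47 of 63 were negative against 50.9% of all genes, and the median was −0.09 against −0.00. Libraries of the treatments did not overlap, with CNO lower, for 7 members (11.1%, against 5.72% of all genes), and with CNO higher for 0 (5.82% of all genes).

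The lean was smaller without 1 library. I–II Saline 2 was the highest of the 6 libraries of laminae I–II for 33 of the 63 members. Without it 38 of 63 were negative and the median was −0.02, and 2 members were lower at an unadjusted p under 0.05 (3.13% of all genes). Without I–II Saline 1, 17 were (4.57%). I–II Saline 1 and I–II CNO 1 were each the lowest for 18 members. The Schwann cell markers given above were also higher in every Saline library than in any CNO library of laminae I–II, and their part in the members' values was not tested.

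Rpl36a, a protein at the exit site of the large subunit (rn6 chrX:105402867-105405580, plus strand), had the smallest p. It stood at 90.0, 82.5 and 65.0 CPM in I–II Saline and 62.3, 55.3 and 62.6 CPM in I–II CNO, so that all CNO libraries were lower, by little in the case of I–II Saline 3. The log2 difference was −0.40 ± 0.10 (unadjusted p = 0.00107, edgeR adjusted p = 0.264), and without I–II Saline 3 it was −0.52 with an adjusted p of 0.0120. In laminae III–VI it was −0.11 ± 0.09, with 66.2, 55.5 and 53.7 CPM in Saline and 58.5, 50.5 and 50.0 CPM in CNO. The difference between these effects, 0.28 ± 0.10, had an adjusted p of 0.332 (edgeR interaction term).

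Next by p in laminae I–II were Rps24 (−0.26), Rpl13 (0.83) and Rps3a (−0.22), with adjusted p-values of 0.471, 0.471 and 0.506 (edgeR). Rps24 stood at 123, 156 and 138 CPM in Saline and 122, 112 and 114 CPM in CNO. Rps3a stood at 109, 133 and 123 CPM in Saline and at 105, 104 and 105 CPM in CNO, an SD of 0.701 CPM (n = 3). Rpl13 had few reads and the widest spread of all members, 94, 37 and 46 counts in I–II Saline and 83, 149 and 137 counts in I–II CNO, and it had 0 counts in III–VI Saline 1 and III–VI CNO 3. Without I–II Saline 1 its value was called (1.37, adjusted p = 0.0271). Rplp2 of the stalk had −0.49 ± 0.19 (adjusted p = 0.592), beside 0.00 for both Rplp0 and Rplp1.

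In laminae III–VI no member was called by edgeR (0.137% of all 13117 genes were), DESeq2 or limma. At an unadjusted p under 0.05, 2 were higher and 3 lower in edgeR, against 5.11% and 4.13% of all genes. DESeq2 gave 1 and 1 (3.26% and 1.71% of all genes), and limma gave 2 and 5 (4.96% and 4.28%). The median log2 difference was −0.05 against −0.01 over all genes, with 42 of 63 negative (51.4% of all genes). With library totals alone 54 were negative, against 61.7% of all genes, and the median was −0.08 against −0.04. In CPM, scaled by library totals, libraries did not overlap with CNO lower for 15 members (23.8%, against 11.3% of all genes). With CNO higher this held for 1, Rps10 (4.54% of all genes).

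Rpl17, at the end of the exit tunnel (rn6 chr18:70970596-70975494, plus strand), had the smallest p in laminae III–VI and a positive value in both layers. It was at 67.3, 72.2 and 54.3 CPM in III–VI Saline and 83.7, 72.0 and 84.1 CPM in III–VI CNO, with III–VI CNO 2 just below III–VI Saline 2. The log2 difference was 0.35 ± 0.09 (unadjusted p = 0.00102, edgeR adjusted p = 0.217). In laminae I–II it was at 62.9, 76.9 and 60.4 CPM with Saline and 82.2, 70.2 and 80.6 CPM with CNO (0.22 ± 0.10, adjusted p = 0.689), again with replicate 2 against the rest. The row overlaps RGD1562987 on the same strand, which had CNO values of 0.05 and 0.03 in the superficial and the deep layer.

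Of the members with negative values in laminae III–VI, Rps7 stood at 130, 144 and 131 CPM with Saline and 114, 118 and 118 CPM with CNO (−0.17 ± 0.06, adjusted p = 0.420). Rps12 was at 51.5, 60.3 and 49.7 CPM against 45.3, 44.2 and 45.9 CPM (−0.21 ± 0.09, adjusted p = 0.463), and Rpl34 at 34.7, 33.1 and 32.0 CPM against 25.4, 31.6 and 24.9 CPM (−0.25 ± 0.10, adjusted p = 0.465). In CPM the 3 did not overlap between the treatments, and none passed the adjusted threshold. Rpl34-ps1, a copy with nearly as many counts, had 0.09, and how reads were divided between the pair is not given in the sources used here. Rps10, the 1 member higher without overlap, had 12.4, 10.9 and 10.5 CPM with Saline and 16.1, 12.5 and 13.1 CPM with CNO (0.34 ± 0.15, adjusted p = 0.498), with III–VI CNO 2 barely above III–VI Saline 1. Its copy Rps10l1, with 311 counts over the 12 libraries beside 1017 for Rps10, had −0.05. In CPM, Rps7, Rps24, Rps3a and Rpl24 (which makes a contact between the subunits) were the 4 members lower with CNO without overlap in both layers. Of all 12881 genes tested in both, 0.97% were, and 0 members were higher in both (0.489% of all genes). TMM factors over the 12 libraries were 0.920 to 0.934 in III–VI CNO and 0.942 to 0.965 in III–VI Saline. Gaps in CPM with CNO lower in laminae III–VI are therefore narrower on the TMM scale and can close. If the same rats gave both layers, the layers are not independent here.

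**Figure D5:**
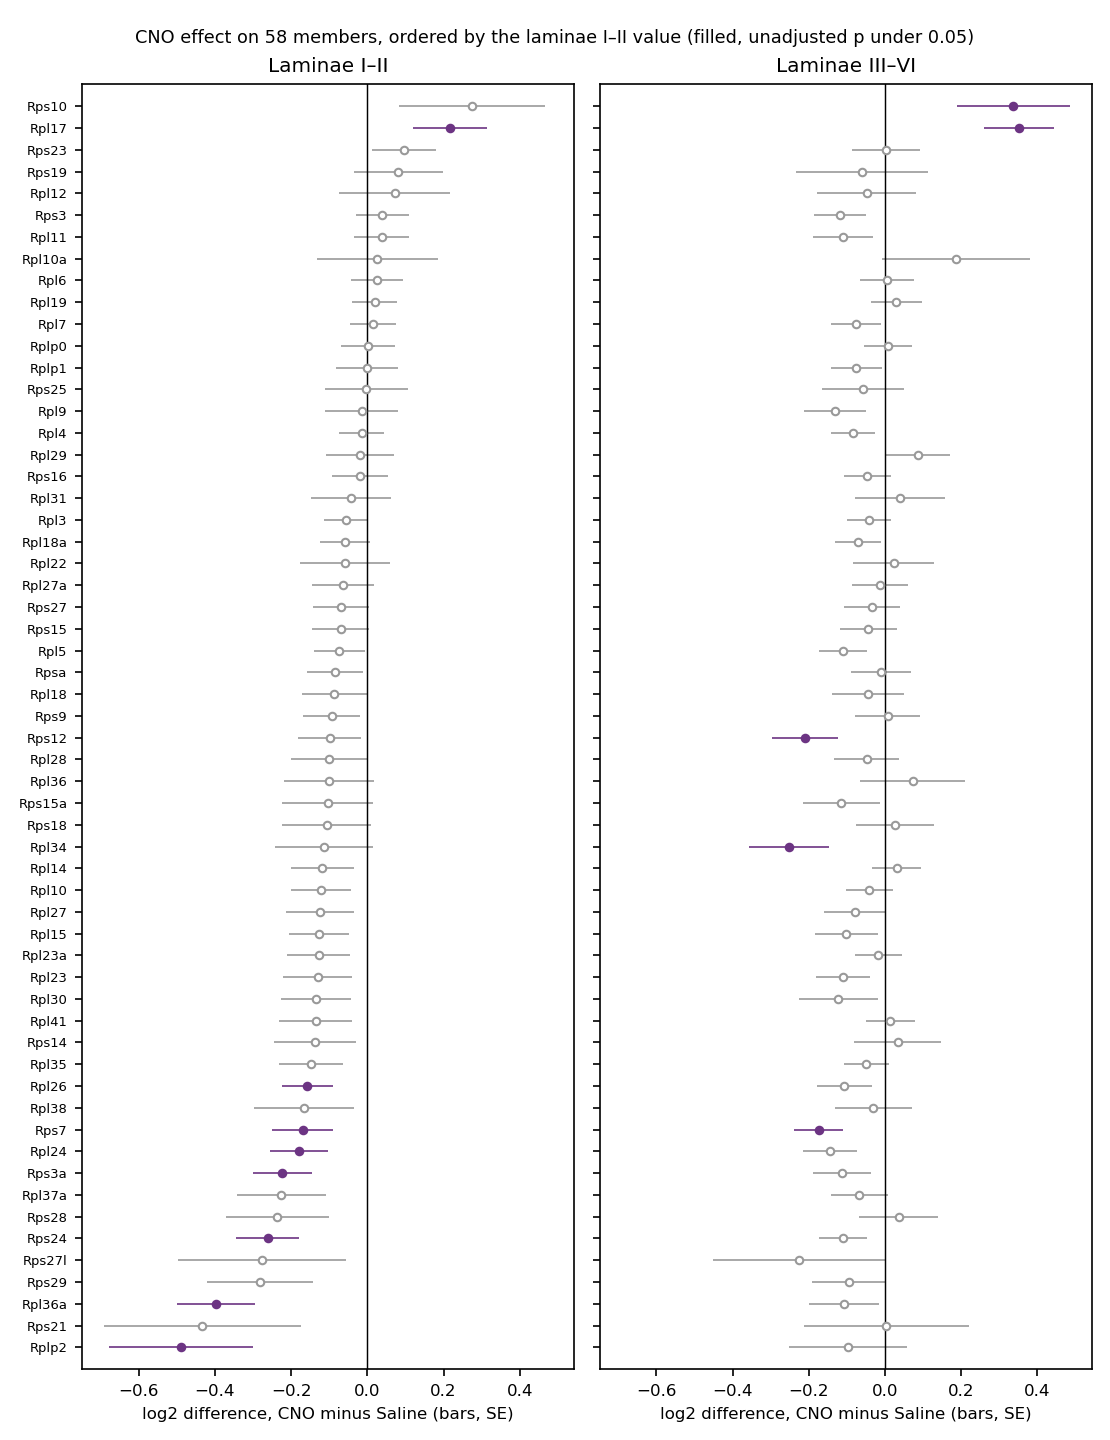
Fitted log2 difference (CNO minus Saline) with its SE for 58 of the 63 members, laminae I–II at left and laminae III–VI at right, in the order of the laminae I–II values. Filled points have an unadjusted p under 0.05, no point passes the adjusted threshold, and values run from −0.49 to 0.28 in laminae I–II and from −0.25 to 0.35 in laminae III–VI.

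The CNO effect did not differ between the layers for any member at an adjusted p under 0.05 (edgeR interaction term, 0.429% of all 13745 genes were called), and 1 member, Rpl36a, had a higher value in laminae III–VI at an unadjusted p under 0.05, against 4.5% of all genes. That count was 13 without III–VI Saline 1 and 11 without I–II Saline 1 (4.79% and 4.01% of all genes), still with 0 called (lowest adjusted p 0.0594). In the fit with all libraries none had a lower one (4.77% of all genes), and DESeq2 gave 0 of either (1.45% and 1.05% of all genes). Next by p was Rplp2 (0.37 ± 0.18, adjusted p = 0.542). The median of the differences was 0.03 with TMM and −0.00 with library totals alone. The median SE of the members was 0.09 for CNO in laminae I–II, 0.08 in laminae III–VI and 0.05 for the layers. With 3 libraries a group, CNO differences as far beyond their SE as those of Rpl36a and Rpl17 did not pass the adjusted threshold. The CV over replicates, averaged over groups, had a median of 8.59% and was at most 15% for 53 of the 63 members.

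The other genes that make, tune or use ribosomes were read from lists and compared in the same fits. Mitochondrial ribosomal proteins, which build the separate ribosome of mitochondria, went the other way from the cytosolic ones between layers: of 72 tested, 1 was higher and 46 lower in laminae I–II, with a median of −0.29, and 5 higher and 24 lower with library totals alone (−0.11). The shares were 1.39% and 63.9% with TMM, against 31.3% and 31.2% of all genes, and 6.94% and 33.3% with library totals alone, against 48.1% and 18.9%. Relative to all genes the medians were −0.30 under both scalings. Mrpl13 stood at 32.2 ± 2.15 CPM in laminae I–II compared with 47.5 ± 1.46 CPM in laminae III–VI (SD, n = 6), and its log2 difference was −0.74, with the smallest p of that list, followed by Mrps15 (−0.56) and Mrps7 (−0.68). The sum of the neuron markers, given above, went in the same direction, although 33.3% of the 6 markers were higher in laminae I–II. The part of neurons was not tested.

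Of 43 translation factors 2 were higher and 19 lower in laminae I–II (21 and 10 with library totals alone). Those shares were 4.65% and 44.2%, against 31.3% and 31.2% of all genes. With library totals alone they were 48.8% and 23.3%, against 48.1% and 18.9%. The elongation factor Eef1a2, the form of neurons and muscle, was lower in laminae I–II (839 ± 31.6 against 1147 ± 73.7 CPM, log2 difference −0.63), and Eef1a1, the form of most other cells, was higher (390 ± 25.4 against 233 ± 18.3 CPM, 0.57). Both kept their direction and their call with library totals alone. Of 50 ribosome biogenesis genes 11 were higher and 15 lower, 22% and 30%, no more than all genes. With library totals alone 26 were higher and 6 lower, 52% and 12%. Values were opposite for the partners Nop56 (−0.49) and Nop58 (0.37), core proteins of box C/D small nucleolar particles. Ubtf, an activator of ribosomal RNA transcription, had 0.47. Of 25 genes of the mTOR and S6 kinase pathway 6 were higher and 10 lower, 24% and 40% (11 and 5, 44% and 20%, with library totals alone). Among them were Sesn3, an inhibitor of mTORC1 (0.51), and Larp1, the TOP-binding protein (−0.46). Each of these 5 genes kept its sign and call with library totals alone.

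Neither edgeR CNO comparison called a gene of these lists, and none passed the interaction test, where Mrpl43 came nearest (0.60, adjusted p = 0.0846). In laminae I–II mitochondrial ribosomal proteins had a median of −0.07 with 52 of 72 negative, close to the cytosolic members, and in laminae III–VI −0.00 with 36 of 72 negative. The smallest p-values were those of Eif3m in laminae I–II (−0.28, edgeR adjusted p = 0.345) and Mrpl43 in laminae III–VI (0.39, adjusted p = 0.264). Of 4 cytosolic ribosomal proteins with other names that were tested, Rpl36al and Rpl22l1 had −0.26 and −0.27 in laminae I–II (adjusted p = 0.529 and 0.592). Fau was listed at 0 in all 12 libraries.

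The 7 members that did not pass the filter had 0 to 50 counts over the 12 libraries. Rpl10l, Rpl39l and Rpl3l are paralogs of restricted expression (Rpl3l in striated muscle, Rpl10l in testis) and had at most 9, 3 and 4 counts in a library. Rpl35a, Rpl37, Rpl8 and Rps20 encode standard parts of the ribosome, and their rows had at most 2, 3, 3 and 0 counts in a library. The rows of Rpl35a, Rpl37 and Rpl8 lie on another chromosome than the RefSeq genes of those names, Rpl37 inside Vps53 and Rpl8 inside Camsap1, so which genes those counts belong to cannot be told. In all, 6 of the 70 rows lie on another chromosome than RefSeq places the gene, 9 overlap another protein-coding gene, and 19 were uncertain for one of these reasons, for many reads in a named copy or, Rpl13, for 0 counts in some libraries. Without them 30 of 47 members were called between the layers, where 62.5% of all genes were. Of the 47, 25 were higher and 5 lower (53.2% and 10.6%, against 31.3% and 31.2% of all genes). Small nucleolar RNA genes, 41 in all, lie inside 20 of the members.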

How the data were processed

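RNA-seq was done on 12 libraries of laser-microdissected L5 dorsal horn, 3 for each layer and treatment. The libraries were rRNA-depleted and strand-specific. Per the labels and methods, the authors mapped paired-end reads to rn6 with CLC Genomics Workbench, and the deposited counts are total reads per gene. Whether strand was used in counting is not given in the sources used here. Beside the counts the authors deposited a quantile-normalized signal for each layer, which entered an alternative only, as log2(signal + 1) in limma. Columns of the authors' own comparisons (group means, ranges, transformed values, fold changes, weighted differences, p-values and false discovery rates) were not used.

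Genes of each comparison were filtered with filterByExpr (minimum count 10, minimum total 15), scaled with TMM and tested with edgeR 4.0.16 (R 4.3.3, glmQLFit and glmQLFTest), with Benjamini-Hochberg adjustment over all genes tested and a threshold of 0.05. CNO was compared with Saline in each layer separately, and 1 fit with same-numbered libraries of a treatment as a block gave the layer values and the interaction (the CNO effect in laminae III–VI minus that in laminae I–II). The block takes same-numbered libraries of the layers as 1 rat. The methods give 3 rats for each layer and treatment without stating that the numbers match, and same-numbered libraries deviated together weakly across layers (r 0.1 to 0.172 for the 6 pairs). Alternatives were library totals, RLE factors, DESeq2 1.42.0, limma 3.58.1, no filter, the block, Saline libraries alone and each library left out. A further 2 were chosen after seeing the data: leaving out members with uncertain counts, and adding to the share of reads the copies held under numbered symbols. The fits were tested on simulated data. Tables and plots were made with Python 3.11.15, pandas 2.3.3 and matplotlib 3.10.9.

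Depth was 5245952 to 7889953 counts per library. Replicates differed beyond sampling noise (chi-square per degree of freedom 2.47 to 4.24), so none was merged. Separate libraries of a group are not labelled as separate animals, so p-values measure only the spread between these libraries. CPM levels are scaled by library totals, log2 differences by TMM unless stated. Gene lengths were not used here, so levels are not compared between genes.

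The members and lists were chosen with earlier results of these data known. Genes were named by rule: the members with the smallest p in each direction of each comparison, members with the most counts, members below the filter, a list by role, and up to 3 genes of each other list per comparison. Ranking by counts per coding length could not be done without lengths. Raw counts replaced it. Some genes that these rules name are not reported here, nor drawn, but stay in all counts and medians except the Schwann cell sum. The uncertain rows, the paralog pairs and the genes of the ratios were picked after their values were seen.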

Additional observations from a re-analysis of the deposited data

How the results depend on the processing

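Under CNO in laminae I–II, 2 members were called without the low-count filter (0.591% of all genes) and 1, Rpl36a, with the replicate block (0.585%). With a library left out 0 to 1 were called (0.0222% to 0.213% of all genes): Rpl13 without I–II Saline 1 and Rpl36a without I–II Saline 3. The members' median was then −0.12 to −0.019, highest without I–II Saline 2. In laminae III–VI, 1 member, Rpl17, was called without the filter (0.525% of all genes) and 1, also Rpl17, with the replicate block (1.48%). With any library left out 0 were called (0% to 0.702% of all genes). Same-numbered Saline and CNO libraries share only a number (r 0.0193 to 0.113). Between the layers DESeq2 called 23 members (36.5%, against 47.0% of all genes). The Saline libraries alone gave 23 (36.5% against 46.6%) and no replicate block gave 28 (44.4% against 58.4%), where the main fit gave 40 (63.5% against 62.5%). Library totals alone gave 50 (79.4% against 66.9%) and a median of 0.29. The members called were 32 to 37 with a library left out (57.2% to 59.1% of all genes), whose same-numbered partner then carries no information on the layers. The median interaction value was −0.0020 with library totals alone and 0.0031 to 0.092 with a library left out, highest without III–VI Saline 1. Single members turned sign: with library totals alone Rpl6 (0.0074), Rpl17 (0.0042) and Rpl24 (0.050) between layers. Rpl10a under CNO in laminae III–VI, 0.19, ranged from −0.046 without III–VI Saline 1 to 0.44 and was −0.03 without III–VI CNO 3. The interaction of Rpl14, 0.13, ranged from −0.0043 without I–II Saline 2 to 0.22 and was −0.0034 without III–VI Saline 2. The causes were not tested. Only part of the members' values under the alternatives were followed singly. Of those, 562 kept direction and side of the threshold, 7 turned sign, 7 lost their call and 7 gained one. Over all members more layer calls were lost. With DESeq2 18 of the 32 members called higher stayed called, and with library totals alone 0 of the 8 called lower did.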

Other observations

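The annotation holds 9 ribosomal protein symbols more than once, with a number added to the symbol (Rpl13a, Rpl21, Rpl32, Rpl39, Rpl7a, Rps27a, Rps2, Rps4x and Rps6), in 20 rows that the naming rule leaves out. They took 0.0484% to 0.0691% of the counted reads per library. Rps6, the substrate of S6 kinase, was split over a row with 217 to 334 counts per library and a row with 223 to 437 counts per library. With these rows added, the share of reads was 0.791% ± 0.038 in laminae I–II against 0.672% ± 0.026 in laminae III–VI (SD, n = 6).

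Some rows named as copies drew many reads. Rpl34-ps1 had 2211 counts over the 12 libraries beside 2650 for Rpl34, and Rps21-ps1 had 1466 beside 640 for Rps21. Counts of Rps21-ps1 per Rps21 were 1.11 to 4.74 in laminae I–II, against 1.87 to 3.50 in laminae III–VI. Rpl34-ps1 had a CNO value of 0.09 in laminae III–VI where Rpl34 had −0.25.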
